A study of Homo sapiens with 84 samples.

Results

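The 7 genes described here are the 5 survival members of the BCL2 family, BCL2, MCL1, BCL2L1 (the gene of BCL-XL), BCL2A1 (the gene of BFL1) and BCL2L2 (the gene of BCL-W), together with the 2 pore-forming executioners BAX and BAK1. They were taken by name from the annotation of a 1-colour Illumina expression array, with the brightest probe standing for each gene. All 7 were among the 12440 genes tested in the normalized table and among the 12559 tested in the table of scanner intensities, and the annotation gave them 14 probes. The series holds 84 arrays of total RNA from 8 established B-cell lymphoma cell lines grown in vitro, RIVA, TMD8, SUDHL2, U2932, OCILY1, OCILY18, DOHH2 and SUDHL10. PQR309, a dual inhibitor of PI3K and mTOR, or its solvent DMSO was given to every line for 4, 8 or 12 h. At the same 3 times, RIVA, TMD8, SUDHL2 and U2932 further received idelalisib or duvelisib, which inhibit PI3K isoforms, or ibrutinib, an inhibitor of the kinase BTK. There is 1 array for each line, treatment and time. The labels give no dose and do not say whether the arrays of a line came from separate cultures, so the lines serve as replicates. In tests over 8 lines, p-values measure the spread between lines. In tests over 4 lines, they rest on 1 spread shared by all 5 treatments, after line differences are removed. Precision is limited by how many lines there are. Each line derives from a single patient, and RNA was extracted from whole cultures, so that fewer cells with a transcript and less of it in each cell cannot be told apart.

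The survival members bind the death-promoting BH3-only proteins and hold BAX and BAK1 inactive on the mitochondrial outer membrane. Once released, BAX and BAK1 oligomerise, permeabilise that membrane and let cytochrome c into the cytosol, where it starts the caspase cascade. B-cell lymphomas often depend on one or a few of the survival members: BCL2 is activated by the IGH::BCL2 translocation in many germinal-centre lymphomas, BCL2A1 is a target of NF-kB, and MCL1 protein turns over quickly and is translated under the control of mTOR. Messenger RNA, which was measured here, does not report protein levels, nor the movement of BAX between cytosol and mitochondria.

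Of the 5 B-cell markers measured, 4 were above the detection limit in 8 of 8 lines, the exception being PAX5, above it in no line. Of 4 T-cell markers, 3 were above the limit in no line and CD2 in 3. Of the myeloid markers, CSF1R was above it in 0, LYZ in 3, CD14 in 6 and CD68 in 8 of 8 lines, and of the stromal and endothelial markers, COL1A2 and COL3A1 in 0, COL1A1 in 1 and PECAM1 in 3. With PQR309 averaged over the times, CD79B (0.32, adjusted p = 0.0262) and CD68 (0.16, adjusted p = 0.00965) rose and MS4A1 (-0.51, adjusted p = 0.0192) fell in limma's test; their part in the results below was not tested. The limit is 6.73 on the authors' normalized log2 scale, the level that separated detected from undetected probes on the arrays that carry detection values. These are 3 arrays, all of OCILY1, and the limit was applied to all 8 lines. For DMSO and PQR309 in RIVA, TMD8, SUDHL2 and U2932, and for DMSO in DOHH2, the 2 deposited tables did not match: over all probes, 27 of the arrays correlated in rank between the tables at only 0.816 to 0.910, against more than 0.99 for the other 54. Differences are therefore formed only within a table. Where results of the 2 tables are set side by side, the part of these unmatched arrays in any disagreement was not tested.

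Without drug, BCL2 was the member that differed most between lines. Its normalized log2 level in DMSO averaged 12.67 in RIVA, 12.45 in U2932, 11.70 in OCILY18, 10.17 in TMD8, 8.80 in DOHH2, 8.56 in SUDHL2, 6.68 in SUDHL10 and 6.55 in OCILY1. The 3 arrays of each line did not overlap those of its neighbours in this order, and SUDHL10 and OCILY1 were under the detection limit on every DMSO array. The standard deviation of BCL2 across lines, 2.44, lay at the 99.98th percentile of all genes tested, with the lines under the limit at their measured values. MCL1 had a standard deviation across lines of 0.999, at the 97.0th percentile, and BCL2L1 one of 0.66, at the 90.5th.

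MCL1 averaged 11.36 in U2932 and 10.03 in SUDHL10, without overlap with each other or with the remaining lines. The other 6 lines lay between 8.998 in RIVA and 8.42 in OCILY1, and each overlapped its neighbour. SUDHL10 thus had the second-highest level of MCL1 beside BCL2 under the detection limit, and U2932 had a high level of both. BCL2L1 was also highest in U2932, at 10.77, and lowest in SUDHL10, at 8.46, with the 6 lines between them, from 10.11 in TMD8 to 9.52 in OCILY1, overlapping their neighbours.

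BCL2A1 was a dim probe with 3 higher lines. Its mean was 8.14 in U2932, 7.90 in TMD8 and 7.85 in SUDHL2, which overlapped each other. The next line, DOHH2, averaged 7.05, below and clear of SUDHL2. RIVA, SUDHL10, OCILY18 and OCILY1 lay between 6.89 and 6.68, close to the detection limit, so a decrease in those 4 lines could hardly have been seen. BCL2L2 was highest in DOHH2, at 8.29, and then ran with overlaps from 7.81 in OCILY18 to 7.08 in U2932.

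The executioners varied least, with standard deviations across lines of 0.31 for BAX and 0.18 for BAK1. BAX means ran from 9.54 in TMD8 to 8.62 in OCILY18 and BAK1 means from 7.36 in SUDHL2 to 6.91 in SUDHL10, and for both genes every line overlapped the next. BAK1 was above the detection limit on all 3 DMSO arrays in 6 of 8 lines. The 4 lines that received every inhibitor, which are generally classed as activated B-cell-like, were set against the other 4 on their DMSO levels. No member passed limma's test with Benjamini-Hochberg adjustment, and neither did any other gene (0% of 12440, 787 at an unadjusted p under 0.05). The 95% interval of the difference lay above 0 for BCL2A1 (0.86, from 0.25 to 1.47, adjusted p = 0.677) and for BAK1 (0.30, from 0.12 to 0.48, adjusted p = 0.636). For BCL2 the difference was 2.53 with an interval of -0.70 to 5.76.

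**Figure D1:**
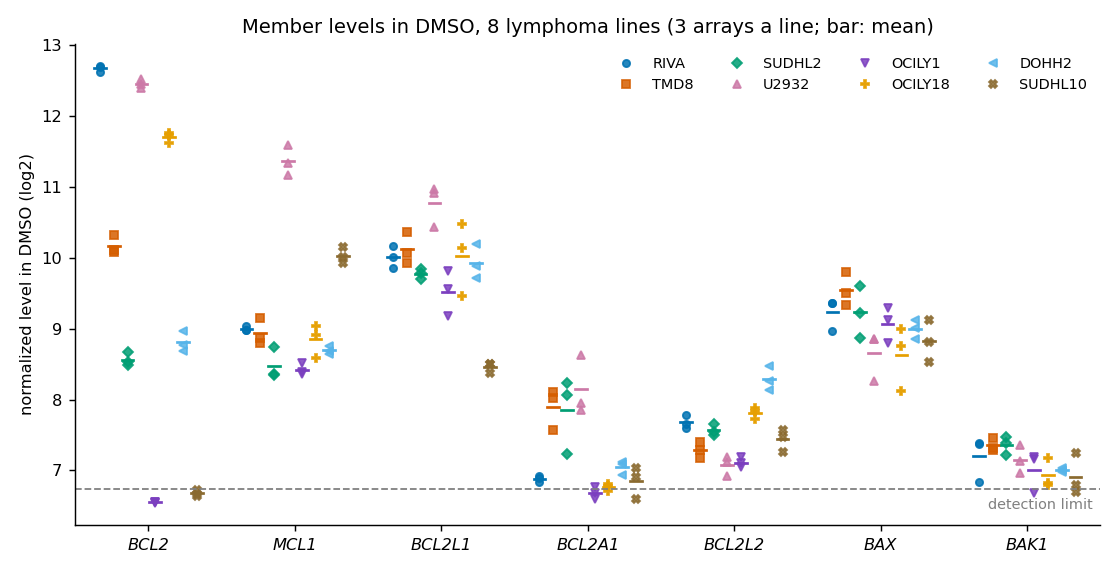
Normalized log2 level (vertical axis) of each member in DMSO, with 1 point per array (4, 8 and 12 h) and a bar at the mean of each of the 8 lines. BCL2 spans 12.67 in RIVA to 6.55 in OCILY1, under the dashed detection limit of 6.73, whereas the BAX line means lie between 9.54 and 8.62.

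The order of the lines in BCL2 depended on the probe. Both brighter probes belong to NM_000633, and their levels over the 24 DMSO arrays had a Pearson correlation of 0.998. Of the pair annotated to NM_000657, a shorter BCL2 transcript, the brighter probe gave another order. Its mean in DMSO was highest in OCILY1, at 8.29, where the NM_000633 probes were at 6.55 and 6.59. It was 8.19 in U2932, 7.91 in RIVA, 7.87 in OCILY18, 7.20 in DOHH2, 6.97 in TMD8, 6.75 in SUDHL2 and 6.67 in SUDHL10. All 3 DMSO arrays of OCILY1 were above the detection limit on this probe and none on the NM_000633 probes. The dimmer NM_000657 probe did not share this order: it was highest in RIVA, at 6.83, and under the limit on all 3 DMSO arrays of OCILY1, with a mean of 6.59. Of 4 probes, 1 thus put BCL2 above the limit in OCILY1, whereas SUDHL10 was under the limit on every DMSO array of all 4 BCL2 probes.

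**Figure D2:**
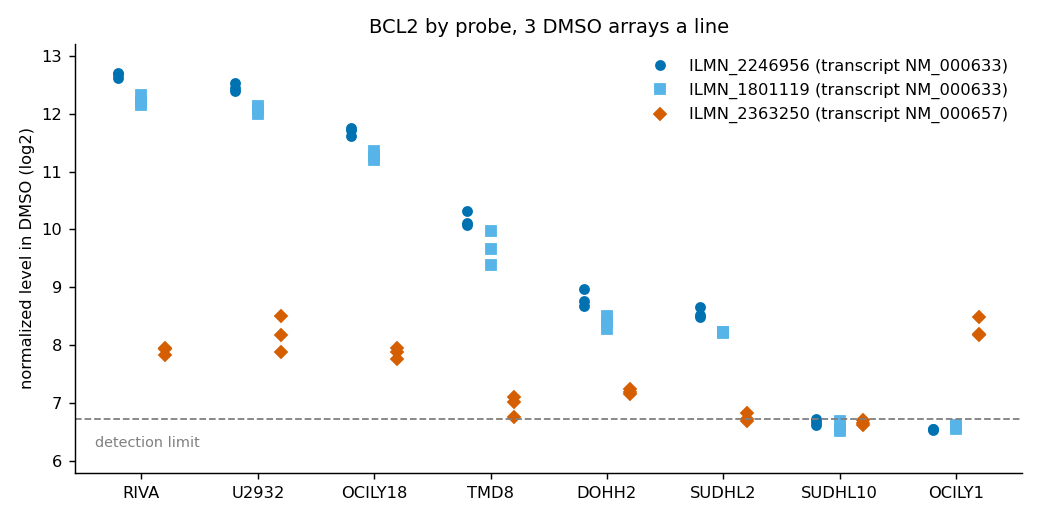
Normalized log2 level of 3 BCL2 probes on the 3 DMSO arrays of each line, with lines ordered by the brightest probe and the detection limit dashed. The 2 probes of NM_000633 fall together from RIVA to OCILY1, whereas the brighter NM_000657 probe is at 8.29 in OCILY1; the dimmer one is not drawn.

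RefSeq promoter windows (GRCh38.p14) were listed for 5 of the 7 members, 6 windows in all; none was listed for MCL1 or BCL2L2. They are shown for BCL2A1 and BCL2, the survival members with the lowest and the highest PQR309 differences described below. Each run is the 250 bases before the annotated start site, on the minus strand, from chr15:79971197-79971446 for BCL2A1 and chr18:63319770-63320019 for BCL2. Capitals mark matches, on either strand, to 3 motifs: GGGNNNNNCC (NF-kB), GTAAACA (FOXO) and TTCNNNGAA (STAT).
BCL2A1: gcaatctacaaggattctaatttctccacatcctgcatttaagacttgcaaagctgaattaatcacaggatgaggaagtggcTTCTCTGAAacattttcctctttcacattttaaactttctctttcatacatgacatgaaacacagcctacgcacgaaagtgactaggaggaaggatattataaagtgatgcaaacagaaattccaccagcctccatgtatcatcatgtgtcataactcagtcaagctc
BCL2: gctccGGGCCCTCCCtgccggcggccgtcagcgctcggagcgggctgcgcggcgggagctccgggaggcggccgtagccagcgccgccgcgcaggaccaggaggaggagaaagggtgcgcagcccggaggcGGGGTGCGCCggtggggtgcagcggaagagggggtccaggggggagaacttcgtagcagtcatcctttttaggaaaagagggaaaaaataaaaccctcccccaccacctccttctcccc
The BCL2A1 window held 1 STAT match, from -168 to -160 relative to the start, and the BCL2 window held 2 NF-kB matches, from -245 to -236 and from -119 to -110. Such matches are common: 54.4% of 35116 windows of this length held the NF-kB letters, 6.57% the STAT letters and 2.98% the FOXO letters. The windows of BAX and BCL2L1 held none of the 3, and that of BAK1 held 2 overlapping NF-kB matches. These are matches of letters in a short window and nothing was read from them about any factor.

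Averaged over the 3 times, 1 of the 7 members, BAX, passed the test of PQR309 against DMSO, beside 26.5% of all 12440 genes, so the members did not pass more often than genes at large. BAX, whose protein forms pores in the mitochondrial outer membrane, was higher with PQR309 by 0.23 ± 0.07 (SE, 8 lines; adjusted p = 0.0417, limma on within-line differences), and in 7 of 8 lines. The difference was largest in OCILY18, at 0.62, and lowest in U2932, at -0.08. The median difference of the 7 members was 0.04, against -0.00011 for all genes.

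The BAX result varied with the probe and with single lines. The second BAX probe gave -0.02, the third, which was above the limit on 3 of 48 arrays and was not kept by the filter, gave -0.0064, and the mean of the probes kept gave 0.10 (adjusted p = 0.117). It passed in 6 of the 16 alternatives that kept the pairing by line (0.09 to 0.34, adjusted p 0.0269 to 0.312). It did not pass without RIVA (0.21, adjusted p = 0.0947), TMD8 (0.23, 0.0761), OCILY1 (0.19, 0.0973), OCILY18 (0.17, 0.0846) or DOHH2 (0.24, 0.0558), nor without the 4 h arrays (0.09, 0.312).

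The survival members differed between lines in their values. BCL2 differed by 0.22 ± 0.09 (adjusted p = 0.113), with 0.71 in DOHH2 and 0.63 in TMD8 and -0.19 in OCILY18. In DOHH2 the difference was 0.43 at 4 h, 0.63 at 8 h and 1.08 at 12 h, and in TMD8 it was 0.32, 0.70 and 0.87. Both lines thus had their largest BCL2 difference at the last time. SUDHL10 and OCILY1, where the probe was under the detection limit, gave differences of 0.0025 and 0.06. The second NM_000633 probe gave 0.69 in DOHH2, 0.53 in TMD8 and -0.03 in OCILY18. The NM_000657 probes did not share this pattern. In the same order, the brighter gave 0.07, -0.10 and 0.27, and the dimmer -0.07, -0.01 and 0.47. Over the 24 differences they correlated with the brightest probe at -0.24 and -0.39. BCL2 passed when these unlike probes were averaged (0.17 ± 0.04, adjusted p = 0.0136). It passed in no other of 16 alternatives (0.14 to 0.35, adjusted p up to 0.237).

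BCL2L1 gave opposite values in different lines. OCILY1 was higher with PQR309 by 1.04 at 4 h, 0.80 at 8 h and 0.80 at 12 h, from DMSO levels of 9.18, 9.56 and 9.81. TMD8 and DOHH2 each averaged -0.48 over the 3 times and RIVA -0.36. OCILY18 was at -0.12 and -0.27 at 4 and 8 h and at 0.84 at 12 h. The mean over 8 lines was -0.09 ± 0.13 (adjusted p = 0.649). Without OCILY1 it was -0.23 ± 0.07 (adjusted p = 0.0499), with -0.34 at 4 h (adjusted p = 0.0307) and -0.36 at 8 h (adjusted p = 0.0133). Each passed the threshold, so that this single line decided these calls. At 12 h the mean over 8 lines was 0.10 ± 0.13 (adjusted p = 0.660). There 0 of 13 alternatives (-0.03 to 0.42) passed, leaving out OCILY1 among them. The mean over times passed in 1 of 16 alternatives (adjusted p up to 0.889). The dimmer BCL2L1 probe was also higher in OCILY1, by 0.25 on average, and lower in 7 of 8 lines.

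BCL2A1 was lower with PQR309 in 7 of 8 lines, by 0.88 in U2932 and 0.49 in TMD8. Among these, RIVA (-0.21), OCILY18 (-0.09) and SUDHL10 (-0.05) were close to the detection limit in DMSO. SUDHL2 averaged -0.17 and ran from -0.74 to 0.44 over the times. The mean of BCL2A1, -0.26 ± 0.09, missed the threshold (adjusted p = 0.0572). It passed without OCILY1 (-0.30, adjusted p = 0.0416) and without the 12 h arrays (-0.29, adjusted p = 0.0452), 2 of its 16 alternatives (-0.47 to -0.17, adjusted p up to 0.163). MCL1 differed by 0.04 ± 0.05, with OCILY18 at -0.34 and the other 7 lines between -0.02 and 0.22. BCL2L2 differed by 0.11 ± 0.05 (adjusted p = 0.103), higher in 6 of 8 lines, and passed without SUDHL2 (0.14, adjusted p = 0.0309), with adjusted p up to 0.218 elsewhere. BAK1 differed by -0.04 ± 0.04 (adjusted p = 0.519), and by -0.16 ± 0.04 (adjusted p = 0.00902) without the 4 h arrays, 1 of 16 alternatives (adjusted p up to 0.840).

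The same split of 4 against 4 lines was applied to the PQR309 differences. No member passed, nor did any other gene (0% of 12440, 543 at an unadjusted p under 0.05). The interval was -0.69 to -0.03 for BCL2A1 and -0.29 to 0.56 for BCL2.

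**Figure D3:**
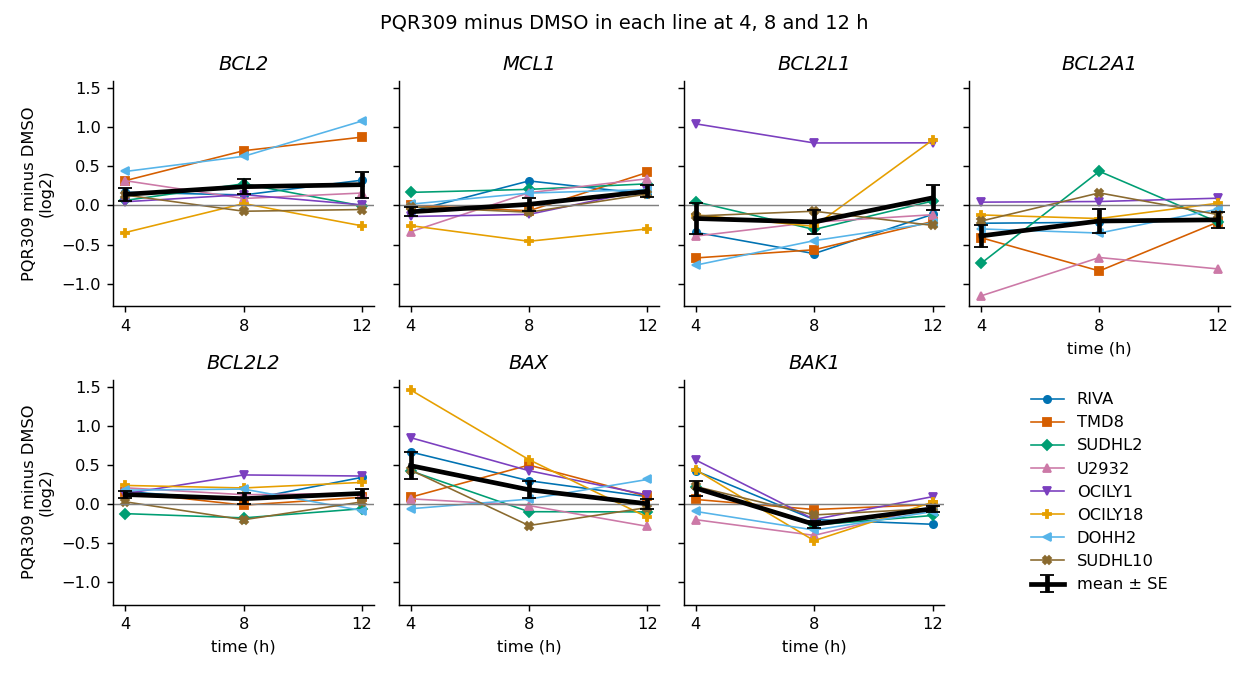
PQR309 minus DMSO (log2, vertical axis) at 4, 8 and 12 h (horizontal axis) for each member, with 1 coloured line per cell line and the mean ± SE of 8 lines in black. BCL2L1 in OCILY1 stays at or above 0.80, BAX starts at 0.49 and ends near 0, and BAK1 is below 0 in every line at 8 h.

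At 4 h, 2 of the 7 members passed, beside 17.3% of all genes. BAX levels in DMSO were 8.12 at the lowest, 8.82 at the median and 9.33 at the highest of the 8 lines, and with PQR309 they were 8.33, 9.35 and 9.64. The groups overlapped, but within lines BAX was higher with PQR309 in 7 of 8. The difference was 0.49 ± 0.14 (adjusted p = 0.0383), with 1.46 in OCILY18, 0.85 in OCILY1 and -0.06 in DOHH2. It did not pass without RIVA (0.47, adjusted p = 0.0924), SUDHL2 (0.50, 0.0681), OCILY1 (0.44, 0.0726), OCILY18 (0.35, 0.0592) or SUDHL10 (0.50, 0.0751). The call was also lost with averaged probes (0.27, adjusted p = 0.0639), without the probe filter (0.0792) and in the scanner intensities (0.38, 0.335). BAX passed in 4 of 13 alternatives, with adjusted p from 0.0274 to 0.335.

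BCL2A1, the NF-kB target among the survival genes, was at 6.76, 7.01 and 8.63 in DMSO at 4 h and at 6.66, 6.80 and 7.61 with PQR309. The largest differences were in the lines with the highest DMSO levels, -1.16 in U2932, -0.74 in SUDHL2 and -0.41 in TMD8. The same DMSO array enters both the level and the difference, and lines near the detection limit could hardly fall. No relation between level and difference can therefore be read from this order. The mean was -0.39 ± 0.11 (adjusted p = 0.0373), lower in 7 of 8 lines. These include RIVA, OCILY18 and SUDHL10, where BCL2A1 was close to the detection limit in DMSO. The call was lost without RIVA (-0.41, adjusted p = 0.0635), TMD8 (-0.39, 0.0680), SUDHL2 (-0.34, 0.0887), OCILY18 (-0.43, 0.0519), DOHH2 (-0.40, 0.0558) or SUDHL10 (-0.42, 0.0592). It was also lost without the probe filter (adjusted p = 0.0739) and in the scanner intensities (-0.64, 0.135). BCL2A1 passed in 4 of 13 alternatives, with adjusted p from 0.0221 to 0.155.

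At 8 h, 1 of 7 members passed, beside 16% of all genes. BAK1, the second executioner, was lower with PQR309 at this time. Its level was 7.01, 7.30 and 7.48 (lowest, median, highest) in DMSO and 6.67, 7.03 and 7.39 with PQR309. It was lower in 8 of 8 lines, by 0.07 in TMD8 to 0.47 in OCILY18. The mean was -0.26 ± 0.05 (adjusted p = 0.00779), and the call held in 11 of 13 alternatives, among them every single line left out. The exceptions used the scanner intensities (-0.13, adjusted p = 0.564; -0.15, adjusted p = 0.598 without DOHH2). These levels lie close to the detection limit. At 4 h BAK1 was higher with PQR309 by 0.20 ± 0.08 (adjusted p = 0.114), in 6 of 8 lines, and passed in 1 of 13 alternatives. At 12 h it differed by -0.06 (adjusted p = 0.392).

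At 12 h, 0 of 7 members passed in limma's test, beside 20.5% of all genes. An unadjusted p under 0.05 was reached by 2 of the 7, MCL1 and BCL2L2, beside 4181 of all 12440 genes. MCL1 differed by 0.18 ± 0.07 (adjusted p = 0.0885), and by 0.25 ± 0.05 (adjusted p = 0.0123) without OCILY18, the only line in which it was lower, which was the 1 of 13 alternatives that passed (adjusted p up to 0.987). BAX differed by 0.0040 at that time.

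The change of the PQR309 difference between 4 and 12 h was tested directly. MCL1, the short-lived survival protein's gene, passed alone among 7 members, beside 10.4% of all genes. Its difference was -0.08 at 4 h, 0.01 at 8 h and 0.18 at 12 h, a shift of 0.26 ± 0.08 (adjusted p = 0.0452) that was positive in 7 of 8 lines. The call was lost on leaving out any of RIVA (0.27, adjusted p = 0.0891), TMD8 (0.24, 0.0876), SUDHL2 (0.28, 0.0665), U2932 (0.20, 0.0975), OCILY1 (0.25, 0.0709), DOHH2 (0.27, 0.0693) or SUDHL10 (0.28, 0.0741). With both MCL1 probes averaged it was 0.06 (adjusted p = 0.709), the second probe averaging -0.10 against 0.04 over the 3 times. Without the probe filter the adjusted p was 0.0619. The scanner intensities gave 0.29 (adjusted p = 0.501), or 0.22 without DOHH2 (0.648). The MCL1 shift passed in 2 of 13 alternatives, with a lowest adjusted p of 0.0390. BAX shifted by -0.49 ± 0.16 (adjusted p = 0.0775), BAK1 by -0.26 ± 0.09 (adjusted p = 0.0767) and BCL2A1 by 0.21 ± 0.06 (adjusted p = 0.0635), the last positive in 8 of 8 lines. In RIVA, SUDHL10, OCILY18 and OCILY1, BCL2A1 was close to the detection limit in DMSO.

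The DMSO arrays themselves moved with time. BAX rose in DMSO between 4 and 12 h by 0.45 ± 0.07 (adjusted p = 0.0069), in 8 of 8 lines, from 0.16 in DOHH2 to 0.88 in OCILY18. It was the 1 member of 7 to pass, beside 7.64% of all genes, and it passed in 11 of 13 alternatives. In the scanner intensities the value was 0.39 (adjusted p = 0.219), or 0.49 without DOHH2 (adjusted p = 0.177). With PQR309 the BAX level at 12 h minus that at 4 h averaged -0.04 with a standard deviation of 0.43, higher in 3 of 8 lines. BAK1 in DMSO averaged 6.97 at 4 h, 7.28 at 8 h and 7.09 at 12 h, against 7.17, 7.03 and 7.03 with PQR309. MCL1 differed by -0.03 in DMSO over the same interval and by 0.23 with PQR309. The part of the DMSO time course in the BAX and BAK1 differences was not tested.

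**Figure D4:**
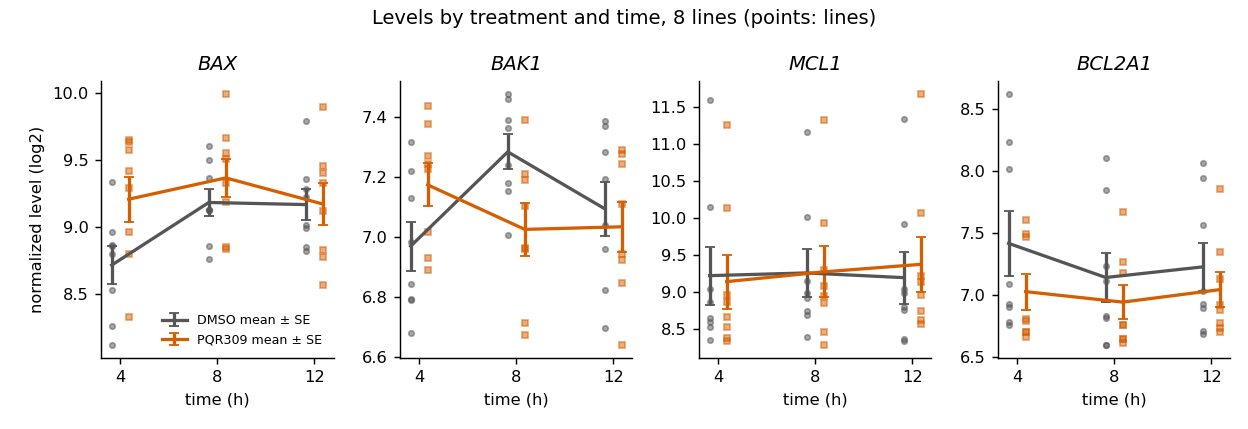
Normalized log2 level of BAX, BAK1, MCL1 and BCL2A1 by time in DMSO (grey circles) and PQR309 (orange squares), with 1 point per line and the mean ± SE of 8 lines. Mean BAX in DMSO is lowest at 4 h, mean BAK1 in DMSO is highest at 8 h, at 7.28, and each panel has its own vertical scale.

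The 4 inhibitors were compared in RIVA, TMD8, SUDHL2 and U2932 with log2 scanner intensities after background correction and quantile normalization. With PQR309, BCL2 and BCL2L2 rose, 2 of 7 members beside 13.5% of all 12559 genes. BCL2 rose in 4 of 4 lines, by 0.17 in RIVA, 0.31 in TMD8, 0.30 in SUDHL2 and 0.36 in U2932, with a mean of 0.28 ± 0.09 (adjusted p = 0.0355). BCL2L2, a survival member known for its role in sperm production, rose by 0.25, 0.18, 0.17 and 0.16 in the same order, with a mean of 0.19 ± 0.06 (adjusted p = 0.0312). Without U2932 the values were 0.26 (adjusted p = 0.181) and 0.20 (0.139), and without TMD8 0.28 (0.192) and 0.19 (0.150), while BCL2L2 also missed the threshold without RIVA (0.17, 0.123). Over 10 alternatives BCL2 passed in 5 (adjusted p 0.0256 to 0.757) and BCL2L2 in 4 (0.0243 to 0.935). With median scaling in place of quantile normalization the values were 0.20 (adjusted p = 0.757) and 0.08 (0.935), and 0 genes passed. With the spread of this comparison alone in limma, BCL2 (adjusted p = 0.0759) and BCL2L2 (0.109) missed the threshold, and 0 genes passed. In the same 4 lines the normalized table gave 0.29 (adjusted p = 0.121) for BCL2 and 0.07 (adjusted p = 0.503) for BCL2L2.

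With the other inhibitors 0 of 7 members passed in limma's test, beside 4.67% of all genes with idelalisib, 0.0159% with duvelisib and 2.97% with ibrutinib. At an unadjusted p under 0.05 BCL2A1 and BCL2L2 were reached with idelalisib and with duvelisib, and BCL2A1 and BCL2L1 with ibrutinib. That threshold was reached by 2745, 1832 and 2835 of all 12559 genes with idelalisib, duvelisib and ibrutinib. BCL2 averaged 0.0018 with idelalisib, 0.08 with duvelisib and -0.0025 with ibrutinib. BCL2L2 averaged 0.13, 0.18 and 0.11, above 0 in 4 of 4 lines with each of them, though RIVA with ibrutinib was at 0.0048. These counts share the same DMSO arrays and are not independent. In SUDHL2 the DMSO level of BCL2L2 was 6.98 at 8 h, against 7.57 at 4 h and 7.55 at 12 h.

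BCL2A1 was lower in TMD8 and U2932 with each inhibitor. In TMD8 its log2 intensity in DMSO was 9.65 at 4 h, 8.02 at 8 h and 9.09 at 12 h. It was 7.79, 7.16 and 7.23 with PQR309 and 8.20, 6.99 and 7.64 with idelalisib. It was 7.75, 7.64 and 7.31 with duvelisib and 7.29, 7.29 and 7.18 with ibrutinib. Every TMD8 array with an inhibitor was below its DMSO array of the same time. The average difference in TMD8 was -1.53 with PQR309, -1.31 with idelalisib, -1.35 with duvelisib and -1.67 with ibrutinib. In U2932 the averages were -1.04, -0.75, -0.85 and -1.30 in the same order. SUDHL2 showed 0.01, -0.17, 0.48 and 0.02. RIVA, near the background in DMSO at 6.40 to 6.59, had values between -0.18 and -0.03. The means over 4 lines were -0.68 ± 0.22 (adjusted p = 0.0535), -0.60 (0.127), -0.48 (0.336) and -0.74 (0.0712). Without SUDHL2 the mean passed with PQR309 (-0.91, adjusted p = 0.0206) and with ibrutinib (-0.998, adjusted p = 0.0385); over the alternatives the adjusted p ran from 0.0206 to 0.586 and from 0.0385 to 0.963. All 4 inhibitors share the same DMSO arrays.

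BCL2L1 varied widely between arrays of the same line. In TMD8 its DMSO intensity was 7.86 at 4 h, 10.17 at 8 h and 8.79 at 12 h, a spread larger than any of its average drug differences. TMD8 averaged -0.78 with idelalisib and -0.45 with duvelisib, RIVA 0.42 and 0.78, and SUDHL2 0.69 and -0.18. With ibrutinib it was above 0 in 4 of 4 lines and averaged 0.43 ± 0.20 (adjusted p = 0.200). For PQR309 the 2 tables gave opposite signs: RIVA was at -0.36 in the normalized table and 0.20 in the intensities, SUDHL2 at -0.07 and 0.24, and U2932 at -0.24 and 0.23. TMD8 was at -0.48 and -0.00071. BCL2 was positive in both tables in 4 of 4 lines.

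BAX averaged 0.22 with PQR309, 0.23 with idelalisib, 0.07 with duvelisib and 0.07 with ibrutinib. U2932 was at -0.23 with PQR309, -0.26 with duvelisib and -0.17 with ibrutinib, whereas TMD8 lay between 0.32 and 0.42 with all 4. BAK1 averaged 0.05 to 0.12, with RIVA below 0 and SUDHL2 above 0 in each case. For BAK1 with PQR309 the normalized table gave -0.07 in SUDHL2, -0.21 in U2932, -0.0050 in TMD8 and -0.0098 in RIVA. The intensities gave 0.20, 0.10, 0.07 and -0.16 in the same order. MCL1 means lay between -0.09 and 0.08, with lines from -0.21 to 0.19.

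**Figure D5:**
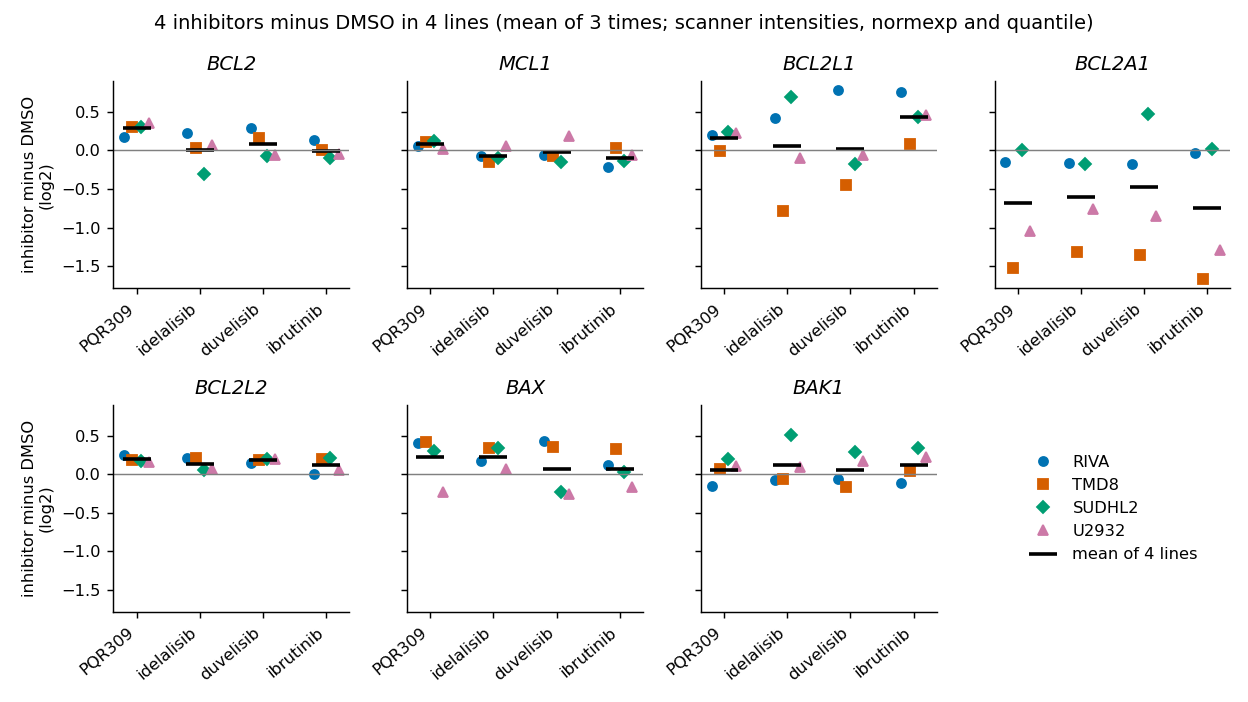
Inhibitor minus DMSO (log2 scanner intensity, mean of 3 times) for each member in RIVA, TMD8, SUDHL2 and U2932, with a black bar at the mean of the 4 lines. BCL2A1 in TMD8 lies between -1.31 and -1.67 with all 4 inhibitors, and BCL2 is above 0 in 4 of 4 lines with PQR309.

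All 6 pairs of inhibitors were compared within lines at matched times. Doses are not given and may differ. Adjusted p-values run over all genes within each pair, and 0 of 7 members passed in any pair in limma's test. At an unadjusted p under 0.05 BCL2 was reached in all 3 pairs with PQR309 and MCL1 in those with idelalisib and ibrutinib. These 3 pairs share the same PQR309 arrays and are not independent. The shares of all genes that passed were 0.0876% for PQR309 minus idelalisib, 0% for PQR309 minus duvelisib and 0.0557% for PQR309 minus ibrutinib. An unadjusted p under 0.05 was reached by 1217, 879 and 1422 of 12559 genes, in the same order. The shares that passed were 0% for duvelisib minus idelalisib (271 unadjusted), 0.00796% for ibrutinib minus idelalisib and 0% for ibrutinib minus duvelisib (427 unadjusted). BCL2 was higher with PQR309 than with idelalisib by 0.28 (95% interval 0.10 to 0.46, adjusted p = 0.256), than with duvelisib by 0.20 (0.02 to 0.38, adjusted p = 0.653) and than with ibrutinib by 0.29 (0.11 to 0.47, adjusted p = 0.215). MCL1 with PQR309 minus ibrutinib was 0.17 (0.03 to 0.31, adjusted p = 0.344). For BCL2A1 the intervals of PQR309 against the other inhibitors were -0.55 to 0.39, -0.67 to 0.27 and -0.41 to 0.54, wide enough to hold differences as large as several of its averages. Idelalisib inhibits the delta isoform of PI3K and duvelisib the delta and gamma isoforms. Between these 2 the intervals of duvelisib minus idelalisib were -0.10 to 0.26 for BCL2, -0.45 to 0.38 for BCL2L1 and -0.35 to 0.59 for BCL2A1.

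The upstream regulators of these members were followed in the normalized table with lists of known genes. Among 8 BH3-only genes, whose proteins neutralise survival members or activate BAX and BAK1, 3 rose and 2 fell with PQR309 averaged over time, beside 26.5% of all genes called in either direction. BMF, released from the cytoskeleton under stress, rose by 0.46 ± 0.10 (adjusted p = 0.00958) and BCL2L11, the gene of BIM, by 0.25 ± 0.06 (adjusted p = 0.0138). BID, which links death receptors to mitochondria, fell by 0.40 ± 0.08 (adjusted p = 0.00452). The median of the 8 was 0.04.

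Of 16 transcription factors known to act on members, 5 rose and 2 fell, beside the same 26.5% of all genes, with a median of 0.02. FOXO1 (0.36 ± 0.04, adjusted p = 0.000723) and FOXO3 (0.33 ± 0.05, adjusted p = 0.00139), which AKT keeps out of the nucleus, rose in 8 of 8 lines, and ETS1 rose by 0.32 ± 0.07 (adjusted p = 0.0105) in 7 of 8. Of 16 protein regulators of members, 2 rose and 3 fell, beside 26.5% of all genes, with a median of -0.07. BAG1, which binds BCL2, fell by 0.18 ± 0.02 (adjusted p = 0.0012), BAG6 rose by 0.27 ± 0.04 (adjusted p = 0.00154) and MFN2, a mitochondrial fusion protein's gene, fell by 0.20 ± 0.03 (adjusted p = 0.00264).

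Downstream, 1 of 9 caspase and apoptosome genes rose and 1 fell, beside 26.5% of all genes, with a median of 0.0043. CYCS, the gene of cytochrome c, fell by 0.37 ± 0.06 (adjusted p = 0.00234) in 8 of 8 lines and CASP2 rose by 0.20 ± 0.03 (adjusted p = 0.00243), while DFFB differed by -0.17 (adjusted p = 0.0581). Of 7 death receptor and adaptor genes, 1 rose and 2 fell, beside 26.5% of all genes, with a median of 0.04. CFLAR, the inhibitor of caspase 8, rose by 0.36 ± 0.08 (adjusted p = 0.00829), and TNFRSF10A (-0.16, adjusted p = 0.00254) and FADD (-0.14, adjusted p = 0.0131) fell. In the lists of 7 caspase inhibitors and their antagonists and of 6 other BCL2 relatives, 0 passed in limma's test. An unadjusted p under 0.05 was reached by BIRC5 in the first and BNIP3 and BNIP3L in the second, beside 4793 of all 12440 genes. The medians of the lists were -0.0043 and -0.0013. BIRC5 differed by 0.16 (adjusted p = 0.0561), SEPTIN4 by 0.05 and BIRC2 by 0.07, and among the relatives BNIP3 differed by -0.26, BNIP3L by 0.15 and BCL2L13 by 0.10.

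For each member the 2 genes with the most similar PQR309 differences were found by Pearson correlation over the 24 differences of 8 lines and 3 times, which share lines and DMSO arrays. They were TBC1D9 (0.86) and AHNAK (0.85) for BCL2, RPL12 (0.76) and KCNMA1 (0.73) for MCL1, and SCN4A (0.81) and GABARAPL1 (0.80) for BCL2L1. HSPA1A (0.75) and TMOD2 (0.71) were nearest to BCL2A1, and SLC8B1 (0.73) and MAD1L1 (0.72) to BCL2L2. ELP6 (0.78) and CDPF1 (0.77) were nearest to BAX, and ABHD12 (0.84) and NPLOC4 (0.83) to BAK1. These are the highest of 12440 correlations each and are given as descriptions.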

How the data were processed

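Total RNA of 84 samples was hybridised to Illumina arrays and read with GenomeStudio, per the submitters' processing notes; the version is not given in the sources used here. The authors deposited normalized log2 values of 84 arrays, of which the 48 with DMSO or PQR309 were used (median 6.64 on each), and a table of scanner intensities of 81 arrays, with detection p-values in place of intensity for 3 deposited OCILY1 columns; how the log2 values were normalized is not stated. Log2 values were used as deposited. Intensities were background-corrected (normexp, offset 50), quantile-normalized and log2-transformed. The brighter 50% of probes was kept and the brightest probe taken per gene; of 47231 probes 30113 had 1 symbol, 8 several and 17110 none. limma 3.58.1 (R 4.3.3) tested within-line differences in 8 lines. In 4 lines it tested the 20 line and treatment means with line as a block. All 5 treatments there shared 1 estimate of the spread. Benjamini-Hochberg adjustment ran over all genes (0.05). The scripts were tested on simulated data. Lines pair the samples: deviations from group means of the same line correlated at 0.925 to 0.954 in 8 lines and at 0.877 to 0.980 in 4. Named genes were the members, up to 3 genes per list with the smallest p, and the 2 genes most similar to each member. Members, lists and tests were chosen with earlier results of these data known. Alternatives covered the probe filter, averaging probes, scaling, background, source table, pairing, times and each line left out. The series' value matrix was not used.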

Additional observations from a re-analysis of the deposited data

Results flagged for a closer look

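Within-group outliers were sought with Dixon's ratio in 77 groups of 4 or 8 lines, and 7 were found, where chance flags about 1 in 20 groups. OCILY18 stood apart for MCL1, at -0.34 with PQR309 averaged over time against -0.02 to 0.22 in the other lines, and at -0.30 at 12 h against 0.15 to 0.42. OCILY1 stood apart for BCL2L1, at 0.88 averaged over time against -0.48 to 0.15, at 1.04 at 4 h against -0.76 to 0.05, and at 0.80 at 8 h against -0.62 to -0.07. U2932 stood apart for BCL2A1 at 12 h, at -0.81 against -0.21 to 0.09. In the scanner intensities TMD8 stood apart for BCL2L1 with PQR309, at -0.00071 against 0.20 to 0.24 in the other 3 lines.

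The PQR309 difference of MCL1 changed between 4 and 12 h, by 0.26 with an adjusted p of 0.0452 in limma's test of that change over 8 lines. That call held in only 2 of 13 alternatives, with adjusted p up to 0.709.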

How the results depend on the processing

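Over 1498 recomputed member values, 1418 stayed on their side of the threshold, 62 lost a call, 18 gained one and 0 called values changed sign; 108 of the 1418, under the threshold in both settings, changed sign. Of 214 recomputed counts of members called, 164 stayed within 1.5 times. Both totals include the many values and comparisons without a call in the main setting, so they do not measure how stable the calls were. Most of the 50 counts that moved came from comparisons with a call. For the mean over times (1 called) the count was 0 without the probe filter, from scanner intensities and from those without DOHH2 (chosen after seeing the data), 2 without the 12 h arrays, and 0 to 2 leaving out single lines. At 4 h (2 called) it was 0 without the filter, 1 with averaged probes, 0 in both intensity versions and 0 to 3 leaving out lines. At 8 h (1 called) it was 2 with averaged probes, 0 in both intensity versions and 1 to 2 leaving out lines; at 12 h (0 called) it was 0 to 1. For the change between 4 and 12 h (1 called) it was 0 without the filter, with averaged probes and in both intensity versions, and 0 to 1 leaving out lines. For DMSO over time (1 called) it was 0 in both intensity versions. For PQR309 in 4 lines (2 called) it was 0 with median scaling, with the comparison's own spread and with the normalized values, and 0 to 3 leaving out lines; for ibrutinib 0 to 1. Without pairing by line (no replicate block) 0 members were called in each comparison in which it was run, that is all but those of 4 against 4 lines, which have no pairing.

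Calls over all genes moved too. The mean over times gave 3295 genes against 1357 from intensities and 0 unpaired; 4 h 2155 against 198 and 1, and 1303 to 2206 leaving out lines; 8 h 1988 against 322 and 0, and 1216 to 2177; 12 h 2552 against 1438 and 0, and 1637 to 2680. The change with time gave 1292 against 0 and 0, and 722 to 1437, and DMSO over time 950 against 21 and 0, and 339 to 902. In 4 lines, PQR309 gave 1696 against 294 to 2033 leaving out lines, idelalisib 586 against 0 to 435, duvelisib 2 against 0 to 108 and ibrutinib 373 against 2 to 473, with 0 to 1667, 0 to 605, 0 to 2 and 0 to 260 under the other alternatives that kept the pairing. Of the pairs, PQR309 minus idelalisib gave 11 against 0 leaving out lines, PQR309 minus ibrutinib 7 against 0 to 9 and up to 64 otherwise, and ibrutinib minus idelalisib 1 against 0 to 1; the DMSO level of 4 against 4 lines gave 0 against 0 to 3. The cause of these movements was not tested. Intensities covered 7 or 8 lines, and 27 of their arrays did not match the normalized table. Signal over background limits BCL2 in SUDHL10 and OCILY1; BCL2A1 was above the detection limit on all 3 DMSO arrays in 5 of 8 lines and BAK1 in 6 of 8.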
